A study of Drosophila melanogaster with 18 samples.

Results

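Transcripts of a set of digestive genes were measured in whole Drosophila melanogaster embryos in which the E2F transcription factors or their partners had been lost or overexpressed. The set named 10 genes: the maltases Mal-A1, Mal-A2, Mal-A3 and Mal-A4, the amylase Amy-p, and the lysozymes LysB, LysD, LysP, LysS and LysX. A member was any probe set annotated with one of these symbols, alone or among several genes. By this rule 9 of the 10 genes had 1 probe set each, which made 9 of the 13966 probe sets of the table and 9 of the 10844 genes that a probe set names alone. No probe set was annotated as Amy-p in the table used here, and that gene was not analysed.

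The embryos fell into 9 groups of 2 arrays, so n is 2 for every group mean. Embryos aged 14 to 16 h were E2f1 mutants or the control, and those aged 8 to 10 h were E2f1 mutants, Dp mutants, 4 kinds of overexpressing embryos or the control. E2f1 mutants carried the null combination E2f17172/E2f191 and came from parents balanced over TM3[Kr-GFP]. Dp mutants carried Dpa2/Dpa4 and came from parents balanced over CyO[Kr-GFP]. The mothers of both mutants therefore had a wild-type copy, and maternal product can persist in such embryos. Mutants aged 8 to 10 h were separated by the COPASTM SELECT sorter, and those aged 14 to 16 h by hand under a fluorescence microscope. Arm-Gal4, a driver with the promoter of the broadly active armadillo gene, expressed E2f1 with Dp, E2f2 with Dp, E2f1336-805 or Rbf1. E2f1336-805 is a piece of E2f1 without the DNA-binding domain and acts as a dominant negative form. The control at both ages was Arm-Gal4 crossed to yw, so it carried the driver, which the mutant stocks did not. Wherever a mutant is set against the control, its genotype cannot be told apart from its stock or from the missing driver. No sorting of the control is described here, so in these comparisons sorting cannot be told apart from genotype either. Between the 2 ages of E2f1 mutants, age cannot be told apart from the way of sorting. The same holds where the mutant effect is compared between the ages. Each RNA sample came from roughly 200 to 700 embryos of a 2 h collection kept at 25 °C. The labels do not say whether the 2 samples of a group were collected separately. Each p-value therefore measures only the spread between samples within groups, which limma estimated from all 9 groups together.

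E2F proteins bind DNA as dimers with Dp and turn cell cycle genes on (E2f1) or hold them down (E2f2), and the retinoblastoma protein Rbf1 (gene Rbf) binds and represses them. The genes described here belong instead to the differentiated gut. Maltases are alpha-glucosidases that split maltose and sucrose into simple sugars, and Mal-A1, Mal-A2 and Mal-A3 were first known as larval visceral protein genes. Amylase cuts starch into the maltose on which maltases act. Lysozymes cut the peptidoglycan of bacterial cell walls, and in this fly most of them serve the digestion of bacteria in the food rather than immunity. LysB and LysD are expressed in the midgut of larvae and adults, and LysS in the gastric caeca of the larval midgut. LysP is known from the adult salivary gland, and LysX from the gut around metamorphosis. The midgut epithelium forms during the hours sampled here, and many of its digestive enzymes are first transcribed late in embryogenesis.

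The maltase genes Mal-A1 to Mal-A4 are neighbours on chromosome arm 2R with 0 other genes between them, and Mal-A5 to Mal-A8 follow directly. On 3L the order is LysB, LysC, LysD, LysE, LysP and LysS, again with 0 genes between, while LysX lies 4 genes away from LysB. These orders come from the RefSeq gene table of the Release 6 assembly. The probe sets for LysB and LysD carry the Affymetrix suffix for probes that could not be made unique to 1 member of a sequence family, as do 53 of all probe sets. Those for the neighbours LysC, a pseudogene, and LysE carry it too. Over the 18 arrays the log2 signals of LysB and LysD correlated at r = 0.97. LysD correlated with LysC at r = 0.97 and with LysE at r = 0.97, and with LysS, whose probe set lacks the suffix, at r = 0.68. In their deviations from the group means LysD correlated with LysB at r = 0.88 and with LysS at r = 0.81, and LysB with LysS at r = 0.77 and with LysC at r = 0.69, so these deviations do not set LysS apart. These correlations describe probe sets read on the same arrays and possibly the same transcripts. LysB and LysD are therefore given below as readings of a group of near-identical lysozyme transcripts that cannot be told apart. Each count of probe sets below still counts both.

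**Figure D1:**
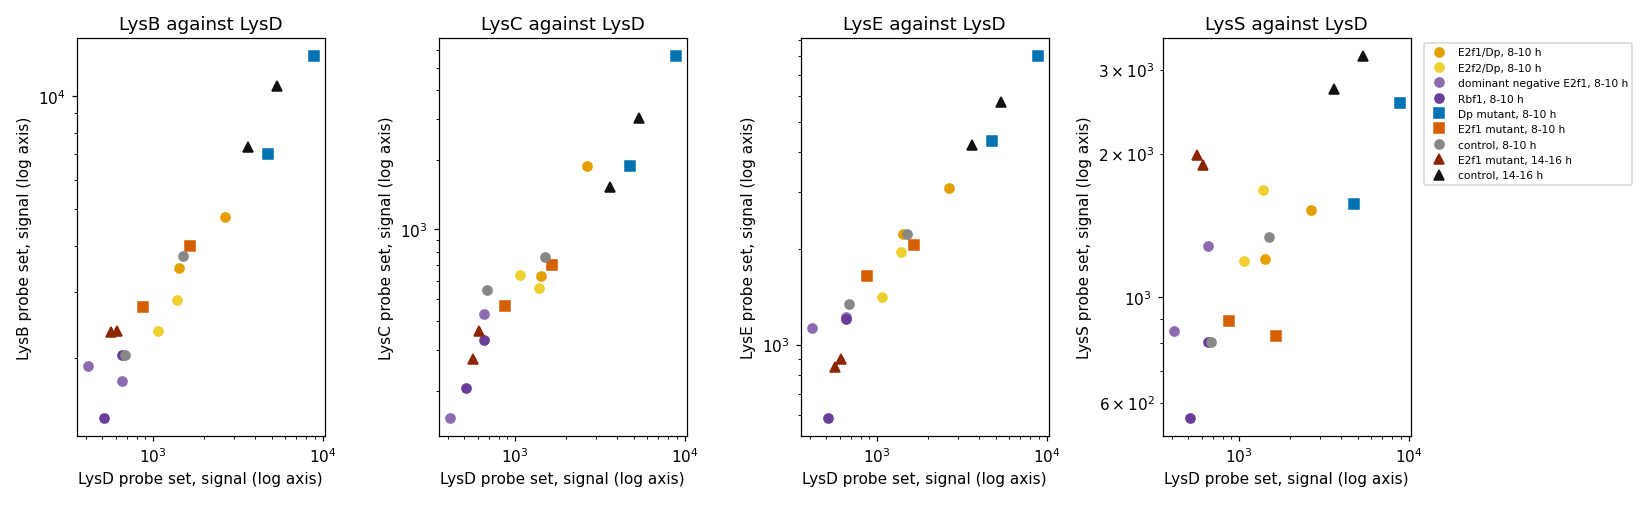
Signal of the LysB, LysC, LysE and LysS probe sets (vertical, log axis) against that of LysD (horizontal, log axis) on each of the 18 arrays, coloured by group. LysB, LysC and LysE follow LysD closely (r = 0.97 for each over 18 arrays). LysS follows it less (r = 0.68), and on the 2 arrays of E2f1 mutants at 14 to 16 h LysS reads 1987 and 1893 where LysD reads 565 and 612.

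Deposited array medians lay between 209.15 and 247.75, and the arrays were quantile normalized. Values below signal 47.5 were set to that floor before log2 changes were taken. The manipulated transcripts checked the labels in part. Dp read 497 and 678 in Dp mutants, against 2090 and 1649 in the control, and E2f1 read 326 and 811 in E2f1 mutants, against 2654 and 1325 in the control of that age. At 14 to 16 h E2f1 read 594 and 448 in E2f1 mutants and 592 and 593 in the control, so its level did not separate these groups. The positions of its probes relative to the mutations were not used. On the Rbf1 arrays Rbf read 2213 and 1908, against 344 and 241 in the control, and E2f1 itself read 3221 on replicate 1 and 13647 on replicate 2. On the arrays of E2f1 with Dp E2f1 read 12282 and 6952, both below Rbf1 replicate 2. The cause was not tested, and it limits every reading of the Rbf1 group below.

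Of the 9 probe sets, 6 passed the filter that removed the dimmest 30% by mean, and these were tested: Mal-A1, Mal-A3, Mal-A4, LysB, LysD and LysS. LysB, LysD and LysS were well clear of it, at percentiles 97.0, 90.2 and 90.1 of mean log2 signal among all probe sets. Mal-A4, Mal-A1 and Mal-A3 stood at percentiles 65.0, 57.0 and 48.2. Probe sets differ in how well they bind, so these percentiles do not rank the transcripts. The other 3, Mal-A2, LysP and LysX, were at percentiles 29.3, 14.9 and 13.8 and lay at or below the floor on 7, 7 and 10 of the 18 arrays.

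**Figure D2:**
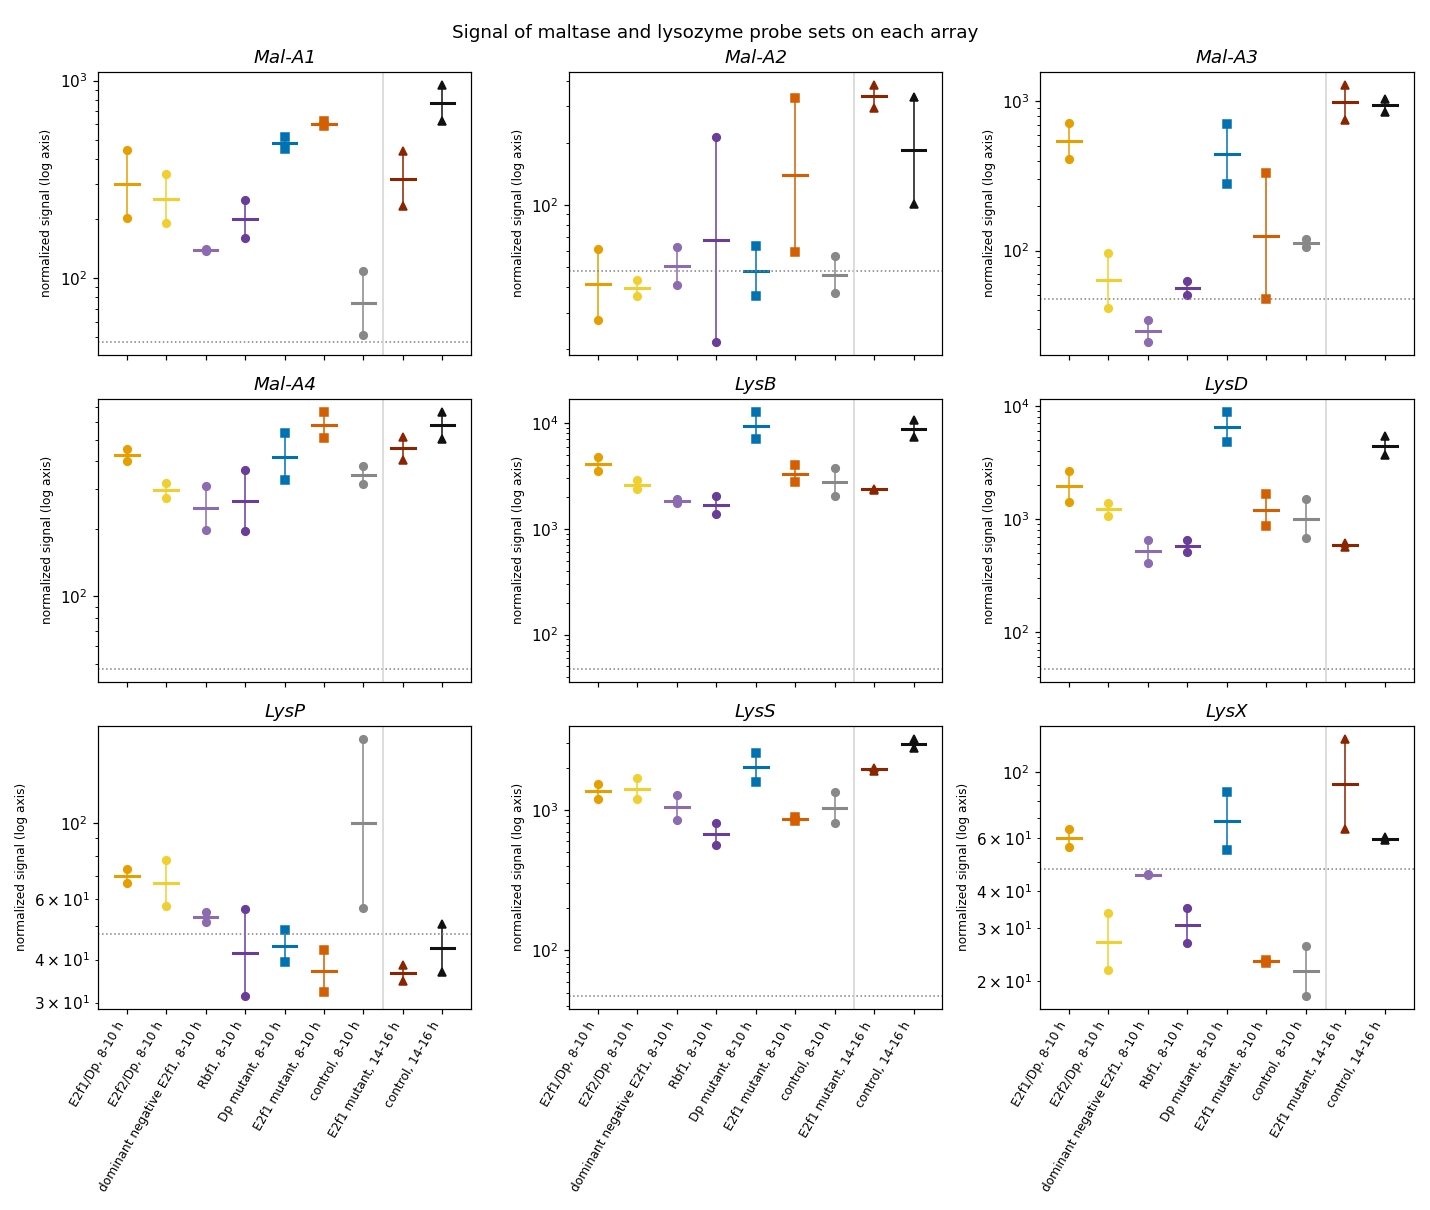
Normalized signal (log axis) of the 9 probe sets on each array, with points for the 2 arrays of a group and a bar at their geometric mean. The dotted line is the floor at 47.5, and the grey vertical line separates 8 to 10 h from 14 to 16 h. Mal-A1 is lowest in the control at 8 to 10 h, and LysB and LysD are high in Dp mutants and the 14 to 16 h control but low in E2f1 mutants at 14 to 16 h.

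The first comparison asked how these genes change as control embryos age. Of the 6 tested probe sets 5 rose and 0 fell between 8 to 10 h and 14 to 16 h, at an adjusted p under 0.05 in limma. In the same comparison 43.2% of all 8975 tested units passed and 17.6% were higher at the later age, so a call is common here. The median log2 change was 1.91 over the 6 probe sets and -0.19 over all units. Mal-A1, a sugar-splitting maltase, read 953 and 624 at 14 to 16 h, against 109 and 51.6 at 8 to 10 h. That rise of 10.3-fold (log2 change 3.36 ± 0.47, SE; adjusted p = 5.42e-05) passed. The early array at 51.6 was just above the floor, and with an offset of 50 and no floor the log2 change was 2.69 (adjusted p = 4.51e-05). Mal-A3, its neighbour in the maltase cluster, read 855 and 1042 at 14 to 16 h, against 106 and 120 at 8 to 10 h, and rose 8.39-fold (log2 change 3.07 ± 0.70, adjusted p = 0.00248). Mal-A4 gave 664 and 505 at the later age and 381 and 318 at the earlier one, a log2 change of 0.73 ± 0.36 that did not pass (adjusted p = 0.109).

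The 3 bright lysozymes rose with age as well. The LysB probe set read 10628 and 7339 in the control at 14 to 16 h, against 2045 and 3741 at 8 to 10 h (log2 change 1.67 ± 0.32, adjusted p = 0.000722). LysD read 5396 and 3645 at 14 to 16 h, against 677 and 1503 at 8 to 10 h (log2 change 2.14 ± 0.43, adjusted p = 0.000918). In both probe sets the arrays of the later age lay above those of the earlier one. LysS, the lysozyme of the gastric caeca, read 3205 and 2736 at 14 to 16 h, against 806 and 1338 at 8 to 10 h, and rose 2.85-fold (log2 change 1.51 ± 0.30, adjusted p = 0.000895).

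E2f1 mutants were sampled at the same ages. Between 8 to 10 h and 14 to 16 h 2 of the 6 probe sets rose in the mutants and 0 fell, in a comparison in which 35.7% of all units passed and 13.9% were higher at the later age. The median log2 change was -0.42 over the 6 and -0.15 over all units. Mal-A3 read 1294 and 755 in mutants at 14 to 16 h, against 47.2 and 329 at 8 to 10 h, a rise of 7.9-fold (log2 change 2.98 ± 0.70, adjusted p = 0.00376). The 2 early arrays differ widely, and without replicate 1 of the early mutants the log2 change was 1.59 and did not pass (adjusted p = 0.0708), while without replicate 2 it was 4.37. LysS read 1987 and 1893 at 14 to 16 h, against 891 and 829 at 8 to 10 h (log2 change 1.17 ± 0.30, adjusted p = 0.00655).

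The other 4 tested probe sets did not pass with age in the mutants. LysD read 565 and 612 at 14 to 16 h, against 872 and 1650 at 8 to 10 h (log2 change -1.03 ± 0.43, adjusted p = 0.0728). This passed with the deposited scaling (adjusted p = 0.0467) and without replicate 1 of the early mutants (log2 change -1.49, adjusted p = 0.0442). LysB read 2350 and 2367 in mutants at 14 to 16 h, against 2749 and 3988 at 8 to 10 h (adjusted p = 0.264). Mal-A1, at 440 and 231 in the late mutants and 588 and 622 in the early ones, had a log2 change of -0.92 ± 0.47 (adjusted p = 0.147). Mal-A4 overlapped, at 516 and 405 in the late mutants and 510 and 666 in the early ones (log2 change -0.35 ± 0.36, adjusted p = 0.484). The 2 ages did not overlap for LysD, LysB or Mal-A1, and each was lower at the later age, the opposite of the control. Here and elsewhere, overlap only describes the arrays, and the share of all units whose arrays do not overlap was not counted.

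At 14 to 16 h the E2f1 mutants differed from the control in the lysozyme group. Of the 6 probe sets 2 fell and 0 rose, where 5.6% of all units passed and 3.84% were lower in the mutants. The median log2 change was -0.94 over the 6 and 0.06 over all units. LysD read 565 and 612 in E2f1 mutants, against 5396 and 3645 in the control, and fell 7.54-fold (log2 change -2.91 ± 0.43, adjusted p = 0.000703). LysB read 2350 and 2367 in E2f1 mutants, against 10628 and 7339 in the control, and fell 3.74-fold (log2 change -1.90 ± 0.32, adjusted p = 0.00219). In whole embryos fewer cells of a type and less RNA per cell cannot be told apart, here or below. Both calls held without each of the 4 arrays compared and under every other alternative tried.

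The remaining members were not called at 14 to 16 h. LysS read 1987 and 1893 in E2f1 mutants, against 3205 and 2736 in the control, with no overlap, and its log2 change was -0.61 ± 0.30 (adjusted p = 0.3). Mal-A1 read 440 and 231 in E2f1 mutants, against 953 and 624 in the control, again with no overlap, and its log2 change was -1.27 ± 0.47 (adjusted p = 0.147). Mal-A3 overlapped between the groups, with 1294 and 755 in E2f1 mutants and 855 and 1042 in the control, a log2 change of 0.07 ± 0.70. Mal-A4 also overlapped, at 516 and 405 in E2f1 mutants and 664 and 505 in the control. At this age LysB and LysD thus passed, and the groups overlapped for Mal-A3 and Mal-A4. For Mal-A1 and LysS the arrays stood apart, but neither passed, and the share of all units that stood apart was not counted.

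At 8 to 10 h the same mutants showed another pattern. Of the 6 probe sets 1 rose and 0 fell against the control, where 2.55% of all units passed and 1.2% were higher in the mutants. The median log2 change was 0.25 over the 6 and -0.01 over all units. The 1 was Mal-A1, which read 588 and 622 in E2f1 mutants, against 109 and 51.6 in the control, a difference of 8.07-fold (log2 change 3.01 ± 0.47, adjusted p = 0.00311). With the offset in place of the floor the log2 change was 2.37 (adjusted p = 0.00314), and in a fit of these 2 groups alone the call was lost (adjusted p = 0.113). LysB at 2749 and 3988 in E2f1 mutants overlapped the control at 2045 and 3741, and LysD at 872 and 1650 overlapped the control at 677 and 1503. Mal-A3 was at 47.2 and 329 in E2f1 mutants, on either side of the control at 106 and 120. Mal-A4 read 510 and 666 in E2f1 mutants, against 381 and 318 in the control, without overlap (log2 change 0.74 ± 0.36, adjusted p = 0.284).

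The E2f1 mutant effect differed between the ages for 3 of the 6 probe sets, tested as an interaction in which 2.75% of all units passed and 1.83% had a negative difference. All 3 differences, late effect minus early effect, were negative. The median was -1.62 over the 6 and 0.04 over all units. For Mal-A1 the difference was -4.29 ± 0.67 on the log2 scale (adjusted p = 0.00262; -3.51 with the offset, adjusted p = 0.00236), with a higher level in mutants at 8 to 10 h and a lower one, not called, at 14 to 16 h. For LysD it was -3.16 ± 0.60 (adjusted p = 0.0101). When control replicate 1 of 14 to 16 h was left out it was -2.88 and did not pass (adjusted p = 0.0547). For LysB it was -2.16 ± 0.46 (adjusted p = 0.0189). The LysB call was lost without control replicate 1 of 8 to 10 h (log2 difference -1.73, adjusted p = 0.0731) or of 14 to 16 h (-1.89, adjusted p = 0.099). It was lost as well without E2f1 mutant replicate 2 of 8 to 10 h (adjusted p = 0.0712) or replicate 1 of 14 to 16 h (adjusted p = 0.0564), without the filter (0.0625) and without limma's trend (0.0584). Mal-A3 (-0.09 ± 0.99), Mal-A4 (-1.09 ± 0.50) and LysS (-0.34 ± 0.42) did not pass. The Mal-A1 difference rests in part on the early control, where Mal-A1 was lowest of all 9 groups.

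**Figure D3:**
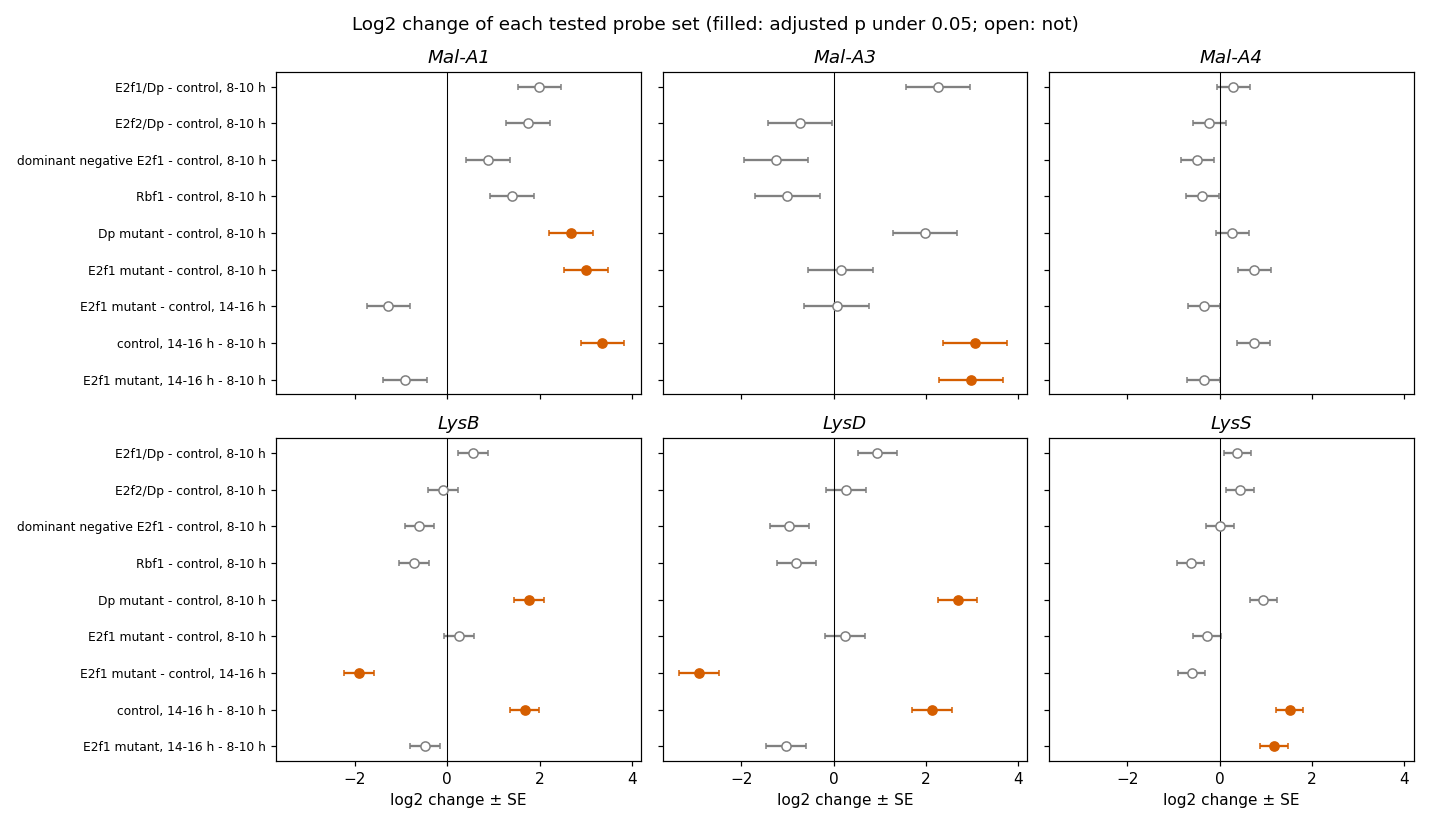
Log2 change ± SE from limma of the 6 tested probe sets in 9 comparisons, one panel per gene; orange filled points passed at an adjusted p under 0.05 and open points did not. LysD is up in the ageing control (2.14) and in Dp mutants (2.69) and down in E2f1 mutants at 14 to 16 h (-2.91), and Mal-A1 is up in both mutants at 8 to 10 h (3.01 in E2f1 mutants and 2.69 in Dp mutants).

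Dp mutants were sampled only at 8 to 10 h. Against the control of that age 3 of the 6 probe sets rose and 0 fell, where 4.0% of all units passed and 2.08% were higher in the mutants. The median log2 change was 1.88 over the 6 and -0.04 over all units. LysD read 8864 and 4792 in Dp mutants, against 677 and 1503 in the control, a difference of 6.46-fold (log2 change 2.69 ± 0.43, adjusted p = 0.00361). LysB read 12809 and 6999 in Dp mutants, against 2045 and 3741 in the control, a difference of 3.42-fold (log2 change 1.78 ± 0.32, adjusted p = 0.00778). Mal-A1 read 452 and 516 in Dp mutants, against 109 and 51.6 in the control, a difference of 6.44-fold (log2 change 2.69 ± 0.47, adjusted p = 0.0072; 2.07 with the offset, adjusted p = 0.00731). In these 3 probe sets both mutant arrays lay above both control arrays. Each of the 3 calls was lost in a fit of these 2 groups alone (adjusted p = 0.145 for LysD, 0.245 for LysB and 0.176 for Mal-A1).

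The lysozyme calls in Dp mutants leaned on single arrays. Replicate 1 of the Dp mutants read higher than replicate 2, and without it LysB had a log2 change of 1.34 (adjusted p = 0.107) and LysD one of 2.25 (adjusted p = 0.054). Without control replicate 1, LysB had a log2 change of 1.34 (adjusted p = 0.096). LysS, at 2554 and 1568 in Dp mutants and 806 and 1338 in the control, did not pass (log2 change 0.95 ± 0.30, adjusted p = 0.0909) but passed without control replicate 2 (adjusted p = 0.0265). Mal-A3, at 705 and 279 in Dp mutants and 106 and 120 in the control, did not overlap and did not pass (log2 change 1.98 ± 0.70, adjusted p = 0.126). Mal-A4 overlapped, at 534 and 330 in Dp mutants and 381 and 318 in the control.

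The Dp mutants and the E2f1 mutants share the control, so they were also compared with each other at 8 to 10 h, in a comparison added after the values had been seen. Of the 6 probe sets 2 were higher in Dp mutants and 0 were lower, where 0.992% of all units passed and 0.568% were higher in Dp mutants. The median log2 change was 1.37 over the 6 and -0.03 over all units. LysD read 8864 and 4792 in Dp mutants, against 872 and 1650 in E2f1 mutants (log2 change 2.44 ± 0.43, adjusted p = 0.0146). LysB read 12809 and 6999 in Dp mutants, against 2749 and 3988 in E2f1 mutants (log2 change 1.52 ± 0.32, adjusted p = 0.0368). Both calls were lost without Dp mutant replicate 1 (adjusted p = 0.148 for LysD and 0.295 for LysB) and without E2f1 mutant replicate 1 (0.182 and 0.319), and with only these 2 groups fitted (0.122 and 0.173). LysB was also lost without the filter (adjusted p = 0.093) and without the trend (0.0955). LysS, at 2554 and 1568 in Dp mutants and 891 and 829 in E2f1 mutants, did not overlap and passed only without Dp mutant replicate 2 (adjusted p = 0.0643 with all arrays, 0.0426 without it). Mal-A3 passed only without E2f1 mutant replicate 2 (log2 change 1.83 with all arrays and 3.21 without it, adjusted p = 0.252 and 0.0209). Mal-A1 was high in both, at 452 and 516 in Dp mutants and 588 and 622 in E2f1 mutants (log2 change -0.33 ± 0.47, adjusted p = 0.82).

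In the 4 overexpressing groups 0 of the 6 tested members passed at an adjusted p under 0.05 in limma, in the fit of all arrays or in any alternative. The numbers with an unadjusted p under 0.05 were 3 of 6 with E2f1 and Dp, 1 with E2f2 and Dp, 1 with the dominant negative E2f1 and 2 with Rbf1. Of all units 8.55%, 8.80%, 10.7% and 13.2% had one, in the same order. Few units passed at all in these comparisons: 0.0891% with E2f1 and Dp, 0.078% with E2f2 and Dp, 0.791% with the dominant negative E2f1 and 1.44% with Rbf1. The median log2 changes over the 6 were 0.75, 0.09, -0.55 and -0.67 in the same order, against -0.02, -0.00, -0.00 and 0.01 over all units. All these comparisons use the same 2 control arrays.

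Mal-A1 was above both control arrays in every overexpressing group. It read 444 and 202 with E2f1 and Dp, 189 and 335 with E2f2 and Dp, 137 and 140 with the dominant negative E2f1, and 247 and 160 with Rbf1, against 109 and 51.6 in the control. The log2 changes were 2.00 ± 0.47 (adjusted p = 0.173), 1.75 (0.338), 0.88 (0.556) and 1.41 (0.194), again in that order, and none passed. The control at 8 to 10 h thus had the lowest Mal-A1 level of all 9 groups, and it overlapped with no other group.

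Mal-A3 spread most among the overexpressing groups. It read 713 and 409 with E2f1 and Dp, 96.9 and 41.3 with E2f2 and Dp, 34.5 and 24.5, both under the floor, with the dominant negative E2f1 and 50.3 and 62.8 with Rbf1, against 106 and 120 in the control. E2f1 with Dp lay above the control without overlap (log2 change 2.26 ± 0.70, adjusted p = 0.363), and the other 3 groups lay below it without overlap. Between E2f1 with Dp and E2f2 with Dp, compared directly, the log2 change of Mal-A3 was 2.99 ± 0.70 and did not pass (adjusted p = 0.0891). In that comparison 0.301% of all units passed and 0 of the 6 members did, with 1 at an unadjusted p under 0.05 (12.0% of all units) and a median log2 change of 0.58 over the 6 against -0.02 over all units.

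The lysozymes moved less than Mal-A3 in the overexpressing groups. LysD read 2667 and 1419 with E2f1 and Dp, 1063 and 1387 with E2f2 and Dp, 655 and 411 with the dominant negative E2f1 and 654 and 509 with Rbf1, against 677 and 1503 in the control. With E2f1 and Dp LysD overlapped the control, and its log2 change of 0.95 ± 0.43 did not pass (adjusted p = 0.561). LysB ran from 3494 to 4766 with E2f1 and Dp, 2374 to 2869 with E2f2 and Dp, 1737 to 1914 with the dominant negative E2f1 and 1390.0 to 2045 with Rbf1, against 2045 to 3741 in the control. The dominant negative group lay below the control without overlap in both, but its log2 changes of -0.96 ± 0.43 for LysD (adjusted p = 0.414) and -0.60 ± 0.32 for LysB (adjusted p = 0.557) did not pass. Rbf1 also lay below the control without overlap for LysD (log2 change -0.81 ± 0.43, adjusted p = 0.438), as it did for LysS, at 805 and 558 with Rbf1 (-0.63 ± 0.30, adjusted p = 0.381), and neither passed. LysS ran from 558 on an Rbf1 array to 1677 on an E2f2 and Dp array, with the control at 806 and 1338.

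Ranked by mean log2 signal over the 9 groups, neighbouring groups often overlapped. For Mal-A1 the order was the 14 to 16 h control, E2f1 mutants and then Dp mutants of 8 to 10 h, E2f1 mutants of 14 to 16 h, E2f1 with Dp, E2f2 with Dp, Rbf1, the dominant negative E2f1 and the 8 to 10 h control. Of its 8 pairs of neighbours 3 overlapped, all in the run from the late E2f1 mutants to Rbf1. LysB and LysD each had Dp mutants first and the 14 to 16 h control second, and 5 of 8 pairs of neighbours overlapped. Mal-A3 was highest in the 2 groups of 14 to 16 h and also had 5 overlapping pairs, while in Mal-A4 all 8 pairs overlapped. Against the early control, at 381 and 318, Mal-A4 lay above without overlap with E2f1 and Dp (399 and 453). It lay below without overlap with the dominant negative E2f1 (197 and 312). With E2f2 and Dp (274 and 322) and with Rbf1 (367 and 195) it overlapped that control, and none of these passed.

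The 3 dim members gave little beyond the floor. Mal-A2, another larval visceral protein gene, read 382 and 295 in E2f1 mutants at 14 to 16 h and 101 and 332 in the control of that age. At 8 to 10 h it read 328 and 59.3 in E2f1 mutants and 37.2 and 56.4 in the control, and all 8 pairs of neighbouring groups overlapped. In a fit without the filter on dim probe sets it passed in no comparison. LysP, the salivary gland lysozyme, had its highest value, 175, on control replicate 2 of 8 to 10 h and lay between 31.4 and 78.1 on the other arrays. LysX read 64.2 and 129 in E2f1 mutants at 14 to 16 h, against 23.0 and 23.6, both under the floor, at 8 to 10 h, and was at least 1.91-fold higher at the later age (adjusted p = 0.0259 in the fit without the filter). It read 59.0 and 60.6 in the control at 14 to 16 h and 26.2 and 17.9, again under the floor, at 8 to 10 h, and did not pass there.

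A stage index placed each array between the 2 control ages by the 300 genes that rose most and the 300 that fell most with age in the control, leaving out digestion, cell cycle and ribosomal genes. Probe sets above a deposited signal of 10000 on any array, or without a single gene, were left out too. The index was 0.321 and 0.152 in Dp mutants, 0.198 and 0.231 in E2f1 mutants at 8 to 10 h and 0.135 on average with E2f1 and Dp. In the control of that age it was -0.052 and 0.052, with a mean of 0 by construction. The index averaged 0.064 with E2f2 and Dp, 0.033 with Rbf1 and -0.057 with the dominant negative E2f1. It was 0.885 on average in E2f1 mutants at 14 to 16 h, against 1 in the control. On the same scale, from 0 at the early control to 1 at the late control, LysD stood at 1.26 in Dp mutants and -0.36 in late E2f1 mutants. LysB stood at 1.06 in Dp mutants and -0.14 in late E2f1 mutants. Mal-A1 stood at 0.896 in early E2f1 mutants, 0.799 in Dp mutants and 0.621 in late E2f1 mutants, and Mal-A3 at 1.02 in late E2f1 mutants. The index moves with several of these results, and its part in them was not tested.

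**Figure D4:**
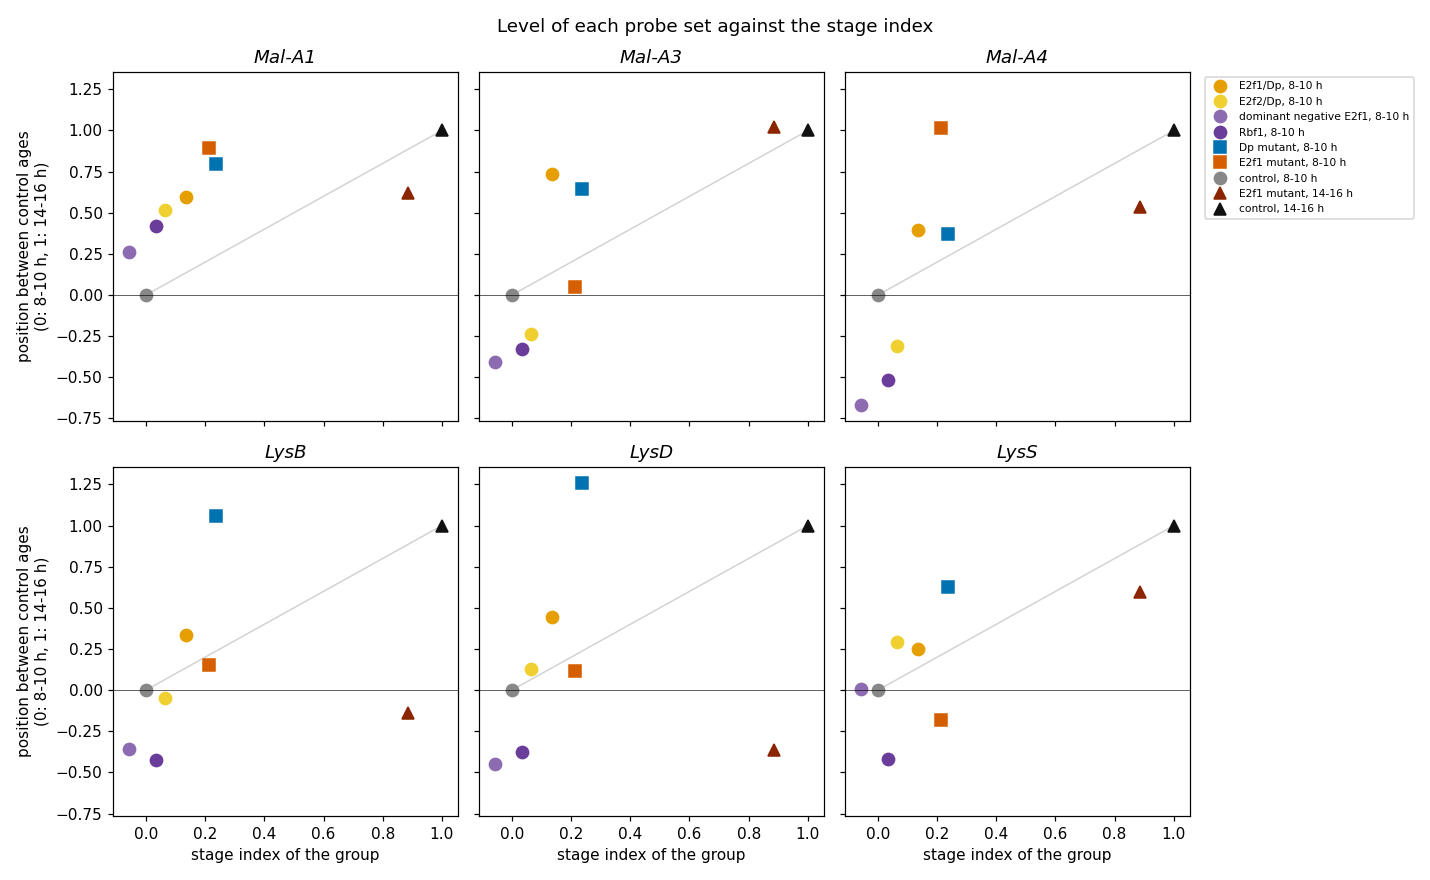
Level of each tested probe set, placed on a log2 scale from 0 (control mean at 8 to 10 h) to 1 (control mean at 14 to 16 h), against the mean stage index of each group. The grey line joins the 2 controls. LysB and LysD lie far above it in Dp mutants (1.06 and 1.26) and far below it in E2f1 mutants of 14 to 16 h (-0.14 and -0.36), while Mal-A3 in those late E2f1 mutants (1.02) is close to the control of that age.

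Markers of other tissues were read beside these results. The summed signal of 5 fat body markers was 24890 and 12832 in Dp mutants and 12952 and 12937 in E2f1 mutants at 8 to 10 h, against 4038 and 7831 in the control. At 14 to 16 h it was 22882 and 28076 in E2f1 mutants, against 17992 and 15800 in the control. Of the 5 fat body markers 1 rose in Dp mutants, a probe set for Adh and Adhr (log2 change 3.30 ± 0.70, adjusted p = 0.0185; median over the 5, 0.18), and 1 in E2f1 mutants at 8 to 10 h, apolpp (1.18, adjusted p = 0.0393; median 1.18). The summed signal of 5 muscle markers was 37150 and 16503 in Dp mutants, 15794 and 17123 in E2f1 mutants at 8 to 10 h and 12844 and 17460 in the control. At 14 to 16 h the muscle sums were 73534 and 72802 in E2f1 mutants and 69840 and 72535 in the control. Over the 5 muscle markers the median log2 change was 0.96 in Dp mutants, 0.22 in E2f1 mutants at 8 to 10 h and 0.02 in E2f1 mutants at 14 to 16 h. With the dominant negative E2f1 4 of the 5 fell (median log2 change -3.01), where 0.691% of all units fell. Sums of 10 haemocyte markers at 14 to 16 h overlapped, at 21462 and 19659 in E2f1 mutants and 19340 and 21880 in the control. The sum of 5 salivary gland markers at 14 to 16 h was 3192 and 4100 in E2f1 mutants, against 3258 and 2997 in the control. The sum of 4 hindgut and Malpighian tubule markers at 14 to 16 h was 1457 and 1552 in E2f1 mutants, against 1583 and 1257 in the control. Of these 4 markers 1 fell, byn, which is given below, where 3.84% of all units fell. The median log2 change over the 4 was 0.24. The higher fat body and muscle sums on Dp mutant replicate 1 go with the higher LysB and LysD on that array, and their part in the result was not tested.

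The near relatives of the members were counted next. Of 20 other alpha-glucosidase, amylase and lysozyme genes with a probe set 8 were tested. In E2f1 mutants at 14 to 16 h 2 of the 8 fell and 0 rose, LysE (log2 change -2.49 ± 0.35, adjusted p = 0.000522) and LysC (-2.78 ± 0.59, adjusted p = 0.0102). In Dp mutants 2 rose, again LysE (1.78 ± 0.35, adjusted p = 0.0116) and LysC (2.34 ± 0.59, adjusted p = 0.0373). These are the neighbours whose probes may read the same transcripts as LysB and LysD. Over the 8, the median log2 change was -0.37 in late E2f1 mutants and 0.31 in Dp mutants, against 0.06 and -0.04 over all units. Of all units 3.84% fell in late E2f1 mutants and 2.08% rose in Dp mutants.

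In the ageing control 3 of the 8 relatives rose, led by CG6426, a lysozyme-type gene (3.43 ± 0.51, adjusted p = 8.61e-05) and followed by LysE and LysC, where 17.6% of all units rose. CG6426 read 494 and 769 at 14 to 16 h, against 25.0 and 68.8 at 8 to 10 h, the first of these under the floor. In E2f1 mutants of 8 to 10 h CG7798 fell against the control (log2 change -1.78 ± 0.36, adjusted p = 0.0149). Its mutant effect differed between the ages in the other direction from those of Mal-A1, LysB and LysD (log2 difference 2.13 ± 0.51, adjusted p = 0.0357). Mal-A5, the next maltase along the chromosome, rose with age in E2f1 mutants (1.09 ± 0.40, adjusted p = 0.0457). The amylase Amy-d, the neighbour of Amy-p on 2R with 2 genes between, did not pass the filter and ranged from 26.2 to 281.

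Midgut proteases, which share the tissue, were counted from a list of 27 genes, of which 25 units were tested. In E2f1 mutants at 14 to 16 h 12 of the 25 fell and 0 rose (median log2 change -2.35, against 0.06 over all units). Of all units 3.84% fell there and 1.76% rose. The trypsin gene betaTry (-4.26 ± 0.53, adjusted p = 0.000201) and the Jonah protease gene Jon99Fii (-4.36 ± 0.56, adjusted p = 0.000314) had the smallest p. In Dp mutants 9 rose and 0 fell (median 2.01, against -0.04), with betaTry at 4.78 ± 0.53 (adjusted p = 0.000374), and in E2f1 mutants at 8 to 10 h 2 rose. Of all units 2.08% rose in Dp mutants and 1.2% in E2f1 mutants at 8 to 10 h. In the ageing control 19 rose and 0 fell, where 17.6% of all units rose and 25.6% fell. In ageing E2f1 mutants 1 rose and 11 fell, where 13.9% of all units rose and 21.7% fell. LysB and LysD thus moved the way of these proteases in late E2f1 mutants and in Dp mutants. In the same comparisons Mal-A3 had log2 changes of 0.07 and 1.98 and LysS of -0.61 and 0.95, and none of these passed. Mal-A3 and LysS rose in a different comparison, the ageing E2f1 mutants, in which the list's median log2 change was -1.37.

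Regulators of endoderm and midgut formation were read beside the enzymes. Of 9 tested 1 fell and 0 rose in E2f1 mutants at 14 to 16 h, the hindgut regulator byn (log2 change -2.09 ± 0.39, adjusted p = 0.00459), and 0 passed in either mutant at 8 to 10 h. Of all units 3.84% fell in the late E2f1 mutants, and 2.55% passed in early E2f1 mutants and 4.0% in Dp mutants. In the ageing control GATAe, a GATA factor of the midgut, rose (1.41 ± 0.39, adjusted p = 0.00818) and 4 others fell, where 25.6% of all units fell. Of 7 tested antimicrobial and peptidoglycan recognition genes, PGRP-SC2, a gut amidase that cuts peptidoglycan, fell in E2f1 mutants at 14 to 16 h (-3.19 ± 0.38, adjusted p = 0.000127) and Drsl5 rose (1.27 ± 0.27, adjusted p = 0.012). At 8 to 10 h Drsl5 fell in E2f1 mutants (-3.59 ± 0.27, adjusted p = 1.02e-05) and in Dp mutants (-1.10 ± 0.27, adjusted p = 0.0362), and Drs, an antifungal peptide gene, rose in Dp mutants (2.13 ± 0.48, adjusted p = 0.0238). PGRP-SC2 was already lower in E2f1 mutants at 8 to 10 h (-1.59 ± 0.38, adjusted p = 0.0373), when LysB and LysD overlapped the control.

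The units most like each member over the 9 group means were also looked up, as a description without a test. For LysD they were LysC (r = 0.99 over 9 groups and 0.97 over 18 arrays) and LysE (0.98 and 0.97), and for LysB they were CG7465 (0.99 and 0.97) and LysC (0.98 and 0.94). For Mal-A3 they were CG8785 (0.97 and 0.96) and CG1572 (0.97 and 0.95). For LysS they were Trxr1 (0.95 and 0.85) and Mpcp1 (0.94 and 0.89). Mal-A1 was most like Lgr3 (0.94 and 0.69) and Cpr47Eb (0.94 and 0.82), and Mal-A4 most like Hgsnat (0.94 and 0.61) and Mpv17 (0.92 and 0.78). Over the 18 arrays Mal-A1 correlated with Mal-A3 at r = 0.53 and with Mal-A4 at r = 0.68, and Mal-A3 with Mal-A4 at r = 0.66. LysS correlated with LysD at r = 0.68 and with LysB at r = 0.74. All these points share the same arrays and their scaling.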

How the data were processed

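RNA of 18 whole-embryo samples was measured on Affymetrix arrays. The authors deposited linear probe-set intensity values, scaled so that the mean after trimming was between 495.468 and 497.832 on each array. The software that summarised the probes is not given in the sources used here, and no detection calls were used.

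Arrays were quantile normalized, floored at the 20th percentile of all values (signal 47.5), log2 transformed and cleared of the dimmest 30% of probe sets by mean. Each gene was represented by its brightest probe set, which left 8975 units. Gene symbols came from the platform annotation (12443 probe sets with 1 gene, 327 with several, 1196 with none), updated through RefSeq. Groups were compared two-sided with limma 3.58.1 (R 4.3.3, eBayes with trend) in 1 fit of 9 group means over all 18 arrays, with Benjamini-Hochberg adjustment over the 8975 units at a threshold of 0.05. Errors are SE of log2 changes. The number of arrays limits the precision. Alternatives were the deposited scaling, median centring, an offset of 50 without a floor, other filters, every probe set, no trend, a replicate block, the compared groups alone and each array left out.

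The members, gene lists and tests were chosen with earlier results of these data known. Named genes are the members, the manipulated genes, up to 4 called genes with the smallest p per list and comparison, and the 2 units most like each member. The stage index and the comparison of both mutants were added after seeing the data. The gene order was taken from RefSeq, and coordinates and sequences were not used here.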

Additional observations from a re-analysis of the deposited data

Results flagged for a closer look

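The difference between E2f1 mutants and the control changed between the 2 ages for 3 probe sets, by limma's interaction test over all units. In the mutants the way of sorting changed with age, and the 2 cannot be told apart. For Mal-A1 the effect at 14 to 16 h minus that at 8 to 10 h was -4.29 on the log2 scale (adjusted p = 0.00262). It was higher in E2f1 mutants on 2 of 2 arrays at 8 to 10 h and lower on 2 of 2 arrays at 14 to 16 h. The early control had the lowest Mal-A1 level of all 9 groups and overlapped with none, so the early difference is not particular to E2f1 mutants. For LysD the difference was -3.16 (adjusted p = 0.0101), with mutant arrays that overlapped the control at 8 to 10 h and lay below it at 14 to 16 h. It did not pass without control replicate 1 of 14 to 16 h (adjusted p = 0.0547). For LysB it was -2.16 (adjusted p = 0.0189), with the same arrangement, and it did not pass in 6 of the other fits, 4 of which left out an array. The LysB and LysD probe sets may read the same transcripts and are not 2 independent results. Groups of 2 arrays are too small for a check of single outlying samples.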

How the results depend on the processing

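Among the tested members 18 differences passed, of which LysB and LysD, which were not read as separate genes, gave 5 each. Of these 9 held under every alternative and without each array, 11 held under every alternative other than leaving out an array, and 0 changed direction. Fitted with only the groups compared, 0 members passed in E2f1 mutants at 8 to 10 h (1 in the fit of all arrays), 0 in Dp mutants against the control (3) and 0 in Dp mutants against E2f1 mutants (2), with fewer arrays to estimate the spread. The log2 changes of these members were the same in those fits. The share of all units that passed there is not given, so the lost calls are not read as particular to the members. The comparison of both mutants also gave 1 without the filter on dim probe sets and 1 without the trend, and the cause was not tested. With the dimmest 50% of probe sets removed, Mal-A3 was not tested, so its 2 differences lack this alternative. Of the 5 members then tested 4 passed in the ageing control, against 5 of 6, and 1 in ageing E2f1 mutants, against 2 of 6. Leaving out 1 array at a time gave 1 to 4 members in Dp mutants against the control, 1 to 3 in the difference of the E2f1 mutant effect between the ages and 0 to 3 in Dp mutants against E2f1 mutants.

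The replicate numbers did not pair the samples: over 36 pairs of groups the correlation of same-numbered deviations was -0.161 to 0.15 (median 0.00834), and 4 were above 0.1. With the replicate number as a block, the number of members called was 2 in E2f1 mutants at 14 to 16 h, 1 at 8 to 10 h, 3 in Dp mutants, 5 in the ageing control, 2 in ageing E2f1 mutants, 3 in the difference between the ages and 2 between the mutants, as without the block, and it changed no member's call. The deposited scaling moved the median of all units by -0.10 in ageing E2f1 mutants and by -0.11 in the difference between the ages. Signals at or below the floor limit Mal-A2, LysP, LysX, CG6426 in the early control and the low groups of Mal-A3, whose folds are compressed. Mal-A1 was at the floor on 0 of 18 arrays. Its folds against the early control rest on low signals there, 109 and 51.6, and were smaller with the offset.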
